A study of Erythranthe guttata with 80 samples.

Results

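In Mimulus guttatus, the yellow monkeyflower, the last leaves sampled before flower buds were compared between 1 perennial line from the coast and 1 annual line from inland. These were the Coast 8leaf plants (leaf pair 4) and the Inland 4leaf plants (leaf pair 2), taken by their sample labels. They made up 20 of the 80 libraries of the series, 10 plants for each group. The coastal line was SWB-4 and the inland line LMC-17, and each ecotype was represented by 1 inbred accession, so that line and ecotype cannot be told apart. All plants were grown in the same chamber under long days, with no treatment, and 1 tissue was taken per plant when the leaf neared full size. The plants' age in days at harvest was not used here. The inland plants often flowered after leaf pair 2 and the coastal plants only after later pairs, so that leaves can be matched by number (both at 4leaf) or by their place as the last pair before buds. The Coast 4leaf plants, 10 further libraries, were therefore set beside both groups. A matched phase does not mean a matched leaf position: the Coast 8leaf and Inland 4leaf leaves came from different nodes.

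Vegetative leaves of successive nodes often differ in form and in gene expression, and the change from early to late nodes is known as vegetative phase change. Jasmonate, made from chloroplast fatty acids, promotes defence: it causes JAZ repressors to be degraded, which frees MYC transcription factors. Gibberellin promotes elongation and, in many plants, flowering, by causing DELLA repressors to be degraded, and both hormones are known for opposite effects on the balance of growth and defence.

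RNA was read by 3′-Tag-Seq, in which a transcript is sequenced only near its 3′ end, so that counts are not scaled by gene length and levels are compared between samples and not between genes. Library totals were 2689947 to 5366139 counts in Coast 8leaf, 2209701 to 5673383 in Inland 4leaf and 2676271 to 5698367 in Coast 4leaf. Leaf identity was checked with marker genes. The summed level of 149 bud-restricted genes, counted nearly only in buds when the 2leaf and bud libraries were compared, was 4.41 to 10.1 CPM (counts scaled to library size) in Coast 8leaf and 520 to 2247 in the buds of both lines. In Inland 4leaf it was 4.73 to 10.3 in 8 plants, 35.3 in plant 7 and 67.5 in plant 4. The summed level of 7 photosynthesis and chloroplast genes was 2973 to 4715 CPM in Coast 8leaf and 3031 to 6281 in Inland 4leaf, with plants 4 and 7 the lowest of the inland group. Inland plants 5, 7 and 10 stood apart in another way, with 117 to 889 CPM over 4 defence genes (2 MLP423 genes, a peroxidase and a serine protease inhibitor) against at most 15.3 CPM in the other 7. Counts of differing and changing genes are therefore also given without plants 4 and 7, and without plants 5, 7 and 10.

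Matching by phase did not bring the lines closer. Of 14723 genes tested by edgeR's quasi-likelihood test with library pool as a term, 10514 (71.4%) differed between Coast 8leaf and Inland 4leaf at an adjusted p under 0.05, against 9247 (62.8%) between Coast 4leaf and Inland 4leaf, 4634 of them higher (31.5%) and 4613 lower (31.3%) in the coastal plants. In the phase-matched comparison 5297 genes (36%) were higher in the coastal and 5217 (35.4%) higher in the inland plants. The median absolute log2 fold change (LFC) over all tested genes was 0.66 at matched phase and 0.52 at matched leaf number. Genes whose CPM did not overlap between the groups were 22.6% of those tested for Coast 8leaf and 14.9% for Coast 4leaf. The share of directions depended on the scaling. With library size alone, which moved the median LFC of all genes to 0.38, 7581 were higher in the coastal and 3232 higher in the inland plants. Without inland plants 4 and 7 the count was 10704 at matched phase and 9540 at matched leaf number, and without plants 5, 7 and 10 it was 10186 and 8685. Within the 4 library pools, of 2 to 3 plants per group, 4182 to 7214 genes passed the test at matched phase and 3624 to 5230 at matched leaf number, and in pool 3 the order was the opposite, with 4182 at matched phase and 4716 at matched leaf number.

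Both comparisons share the Inland 4leaf plants, so the change in a difference is the contrast of Coast 8leaf with Coast 4leaf itself. That contrast passed the test for 4686 genes (31.8%), 2402 higher (16.3%) and 2284 lower (15.5%) in Coast 8leaf. With library size alone these were 6089 and 1144, and the median LFC of all genes was 0.31. Within pools the counts were 887, 1620, 9 and 48. Without inland plants 4 and 7 the count was 4852, and without plants 5, 7 and 10 it was 4818. Of the differences present at 4 leaves, 952 (6.47% of tested genes) shrank, 536 to below the threshold (3.64%), 352 to a smaller difference of the same sign (2.39%) and 64 to the opposite sign (0.435%). A further 2082 (14.1%) grew, and 1398 (9.5%) that had not passed at 4 leaves opened at matched phase. Without inland plants 4 and 7, 897 differences shrank, 2416 grew and 1256 opened, and without plants 5, 7 and 10 these counts were 940, 1984 and 1511. For 5630 genes both ecotype comparisons passed with the same sign and the coastal change did not. When genes are chosen by their 4leaf difference, sampling error in the Coast 4leaf plants favours shrinking, and when they are chosen by their 8leaf difference, sampling error in the Coast 8leaf plants favours growing. Chosen by the 8leaf difference, 352 shrank and 3544 grew. The 3544 are the 2082 grown, the 1398 opened and the 64 reversed differences from above. The 536 that fell below the threshold cannot enter this choice, so part of the imbalance follows from how genes were chosen.

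**Figure D1:**
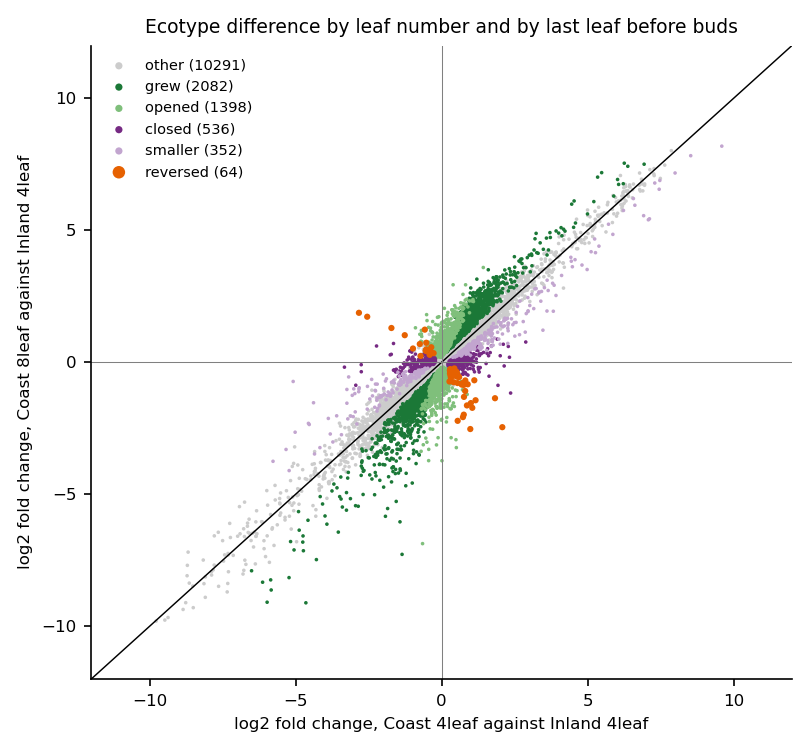
The LFC of Coast 8leaf against Inland 4leaf (vertical) is plotted against that of Coast 4leaf against Inland 4leaf (horizontal), 1 point per tested gene, with colours for the class of change and the line of equality in black. Most genes lie along the line, 2082 that grew lie outside it, and the 64 reversed genes lie in the upper left and lower right sections.

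A direction free of shared plants was taken from the 2leaf stage. Of 3671 genes higher in coastal plants at 2leaf, 720 were also higher in Coast 8leaf than in Coast 4leaf and 591 lower. Of all tested genes 16.3% were higher and 15.5% lower. Of 3477 genes higher in inland plants at 2leaf, 815 were lower in Coast 8leaf and 352 higher. Among 5394 genes that did not pass at 2leaf, 871 were higher and 798 lower. The inland-high genes turned round with library size alone, with 401 of 2802 lower and 801 higher. Of 4493 coastal-high genes 2147 were then higher and 323 lower. Over all 14723 genes this scaling gave 6089 higher and 1144 lower. In sum 1535 of 7148 genes that passed at 2leaf moved away from the inland level and 943 toward it. With library size alone these were 2548 and 1124 of 7295. The 2leaf and the 4leaf-to-8leaf values came from different plants. Where the 2leaf difference exceeded 1 in absolute LFC, 437 of 2324 genes moved away and 304 toward. Among the 1109 coastal-high genes of this kind 166 rose and 204 fell, and among the 1215 inland-high genes 100 rose and 271 fell.

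Distances between libraries, over log2 CPM of all tested genes, gave 1 value per plant. The mean distance to the 10 Inland 4leaf libraries was 154.1 ± 6.37 (SD, n = 10) for Coast 4leaf plants and 169.1 ± 6.69 (SD, n = 10) for Coast 8leaf plants. The difference of 15.0 was larger than the spread between coastal plants (p = 0.00014 by a two-sided permutation test with 100000 resamples). It was 6.6 to 18.7 within the pools, lowest in pool 3. The test exchanged coastal plants only, with the same inland libraries throughout and no pool term, so its p does not cover the spread between inland plants or pools. Coast 2leaf plants lay at 154.5 and Coast 6leaf plants at 164.9. Inland 2leaf plants, by contrast, lay at 97.9.

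**Figure D2:**
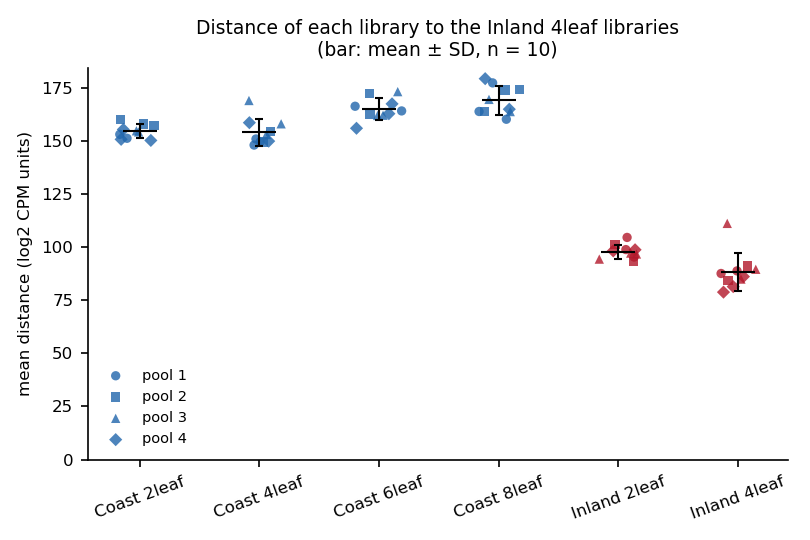
Mean distance of each library to the Inland 4leaf libraries (its own left out) is plotted by group, 1 point per plant with the mean and SD in black and marker shapes for library pools. The Coast 8leaf plants, at 160.2 to 179.3, lie above most Coast 4leaf plants, at 148.0 to 169.0, and the highest Inland 4leaf point is plant 4, at 111.2.

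The lists used below hold 89 genes in 15 groups, of which 73 passed the filter on low counts. Many were chosen by the study on these samples, so their directions are no independent evidence. In the phase-matched comparison 62 of the 73 passed the test, against 71.4% of all genes, and in the coastal change 37 of 73, against 31.8%. The ecotype difference shrank for 11 of the 73, grew for 20 and opened for 4, against 6.47%, 14.1% and 9.5% of all genes.

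**Figure D3:**
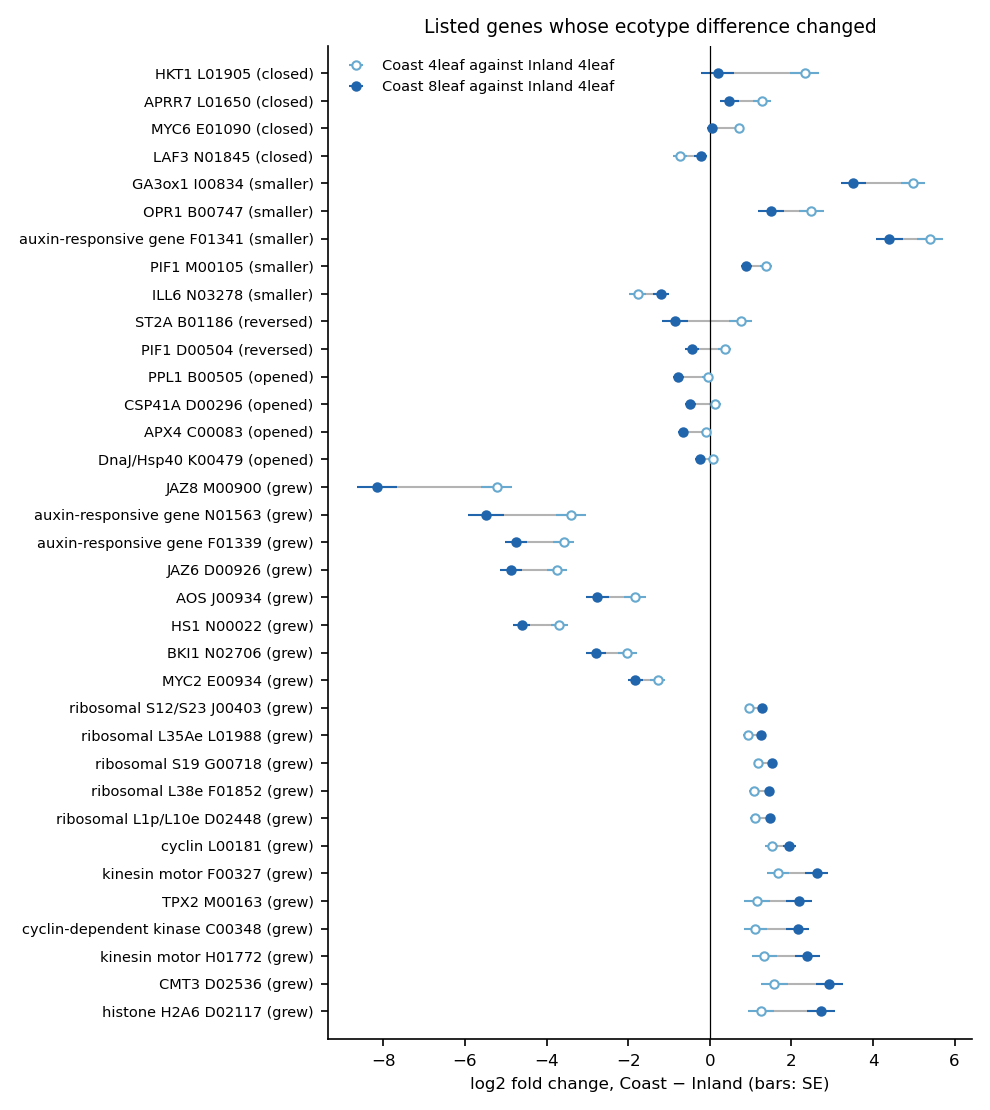
LFC of the 35 listed genes whose ecotype difference shrank, grew or opened, with open points for Coast 4leaf and filled points for Coast 8leaf, both against Inland 4leaf, and bars of 1 SE. HKT1 moves from 2.32 to 0.19, JAZ8 from -5.22 to -8.16, and the cell division genes at the bottom move to the right.

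All 6 genes of the cell division list were higher in the coastal plants at 4 leaves and higher again at 8 leaves, where grown differences made up 14.1% of all genes. Their median LFC against Inland 4leaf was 1.30 at 4 leaves and 2.51 at 8 leaves. Histone H2A6 (Migut.D02117), a packaging protein of newly replicated DNA, had 306.3, 465.7 and 810.9 CPM (lowest, median and highest plant) in Coast 8leaf. It had 92.5, 214.4 and 328.8 in Coast 4leaf and 27.4, 58.8 and 310.5 in Inland 4leaf. The groups at matched phase overlapped only through inland plant 4, whose level of 310.5 CPM was above the lowest Coast 8leaf plant. The LFC was 2.73 (SE 0.34, adjusted p = 2.37e-08) against 1.25 at 4 leaves. Because histone copies can be nearly identical, its counts may include reads of other copies.

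CMT3 (Migut.D02536), a DNA methyltransferase that keeps methylation at CHG sites in Arabidopsis, had 26.7, 33.7 and 65.7 CPM in Coast 8leaf, 6.78, 14.4 and 32.4 in Coast 4leaf and 1.58, 3.88 and 17.9 in Inland 4leaf. No inland plant reached the lowest Coast 8leaf plant, and the LFC was 2.93 (SE 0.33, adjusted p = 5.43e-09). TPX2 (Migut.M00163), a spindle assembly factor, had 21.01, 31.6 and 56.04 CPM in Coast 8leaf and 1.21, 5.12 and 28.2 in Inland 4leaf, with an LFC of 2.19 (SE 0.32). The mean level of H2A6 was 120.2 CPM in Coast 2leaf plants and 206.1 CPM in Coast 4leaf plants. In Coast 6leaf plants it was 372.6 CPM and in Coast 8leaf plants 518.2 CPM, against 87.4 CPM in Inland 2leaf plants. In Inland 4leaf, plant 4 was highest for all 6 genes and plant 7 second for 5 of them, all but the motor gene Migut.F00327, the same plants in which bud-restricted RNA was highest. Its part in these levels was not tested, but without both plants all 6 genes still passed in both comparisons and in the coastal change, and the median LFC at matched phase was 2.94.

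Genes of ribosomes and protein folding, listed together with a cyclin gene, moved the same way by less. All 9 on this list were higher in the coastal plants in both comparisons (36% and 31.5% of all genes were), and for 6 the difference grew (14.1% of all genes). The cyclin gene, Migut.L00181, which the paper ties to the cell cycle, was among these 6. The gene of ribosomal protein S19 (Migut.G00718), part of the small subunit, had 753.4, 925.4 and 1015 CPM in Coast 8leaf, 496.8, 701.1 and 864.0 in Coast 4leaf and 228.9, 305.6 and 324.5 in Inland 4leaf. No inland plant overlapped with either coastal group, and the LFC was 1.54 (SE 0.10) at 8 leaves and 1.17 (SE 0.10) at 4 leaves. Ribosomal protein genes occur in families of close copies, so single genes are uncertain. With library size alone the difference grew for all 9, and for 3025 of all 14723 genes. That scaling also gave 6089 genes higher and 1144 lower in Coast 8leaf than in Coast 4leaf, so the count of 9 is no separate evidence.

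Chloroplast genes went the other way. None of the 7 on the list passed the test between the lines at 4 leaves, where 62.8% of all genes did. Of the 7, 6 were lower in Coast 8leaf than in Coast 4leaf (15.5% of all genes were). At matched phase 4 were lower in the coastal than in the inland plants, against 35.4% of all genes. These 4 differences opened, as did 9.5% of all genes. PPL1 (Migut.B00505), a protein of photosystem II upkeep in Arabidopsis, had 155.5, 210.6 and 271.8 CPM in Coast 8leaf, 274.2, 341.9 and 412.1 in Coast 4leaf and 223.3, 340.3 and 487.0 in Inland 4leaf. The coastal groups lay side by side, with 271.8 CPM in the highest Coast 8leaf and 274.2 in the lowest Coast 4leaf plant (they overlapped with scaling over the 30 fitted libraries), and Inland 4leaf overlapped with both. The LFC against Inland 4leaf was -0.05 (adjusted p = 0.738) at 4 leaves and -0.78 (SE 0.13, adjusted p = 5.91e-06) at 8 leaves. CSP41A (Migut.D00296), an RNA-binding protein of chloroplasts, had 405.4, 613.8 and 886.2 CPM in Coast 8leaf against 566.9, 899.5 and 1124 in Inland 4leaf, an LFC of -0.48 (SE 0.14).

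The remaining opened differences were APX4, an ascorbate peroxidase relative of the thylakoid (LFC -0.66, SE 0.12), and a DnaJ/Hsp40 chaperone gene (LFC -0.25, adjusted p = 0.0482), whose call was lost under 6 of 13 other settings and in 21 of 30 fits that each left out 1 plant. This list depended on the scaling and on the inland plants. With library size alone 4 of the 7 genes were higher in the coastal plants at 4 leaves, 3 were lower in Coast 8leaf than in Coast 4leaf, and at matched phase 2 were lower and 1 was higher in the coastal plants, while without inland plants 4 and 7, or without plants 5, 7 and 10, 6 of 7 were lower.

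**Figure D4:**
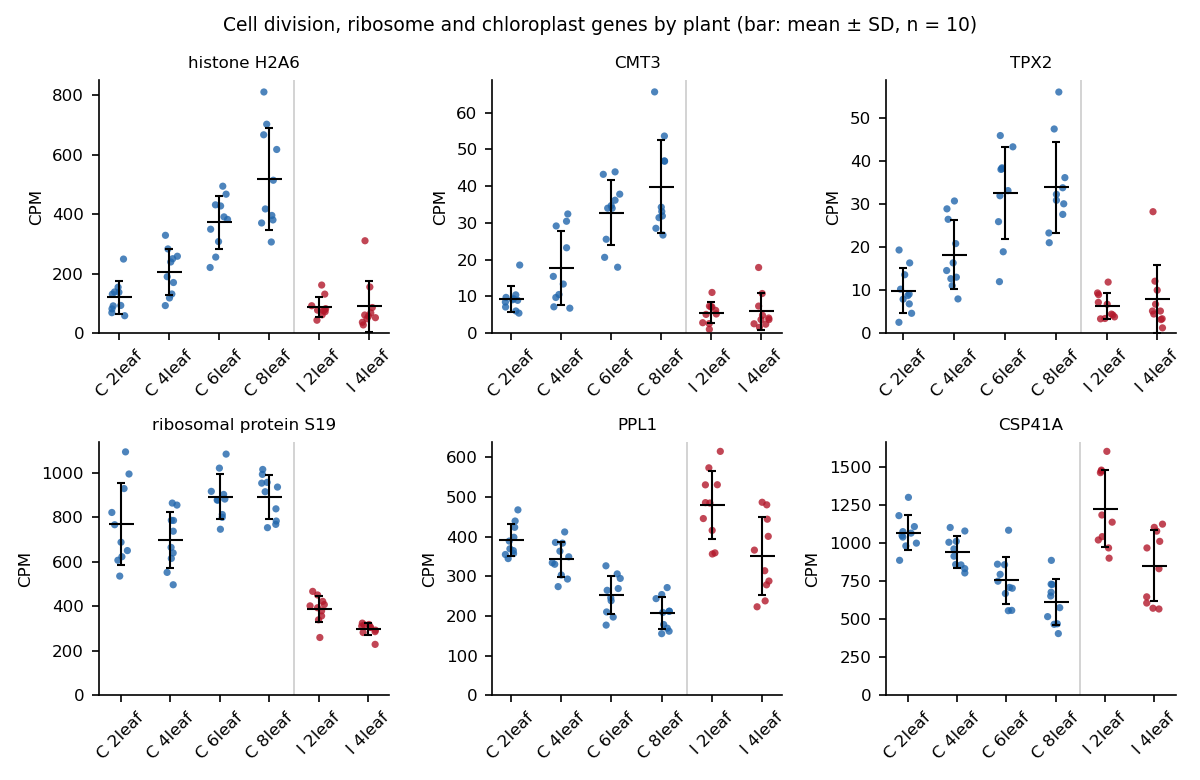
CPM per plant of 3 cell division genes, 1 ribosomal protein gene and 2 chloroplast genes, by line (C, Coast in blue; I, Inland in red) and leaf stage, with mean and SD in black. H2A6, CMT3 and TPX2 are higher in later coastal stages, PPL1 and CSP41A are lower, and 1 Inland 4leaf plant stands high in each of the first 3 panels.

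In jasmonate signalling 6 of 9 genes tested were lower in the coastal plants at matched phase, where 35.4% of all genes were lower, and 3 of these differences grew (14.1% of all genes). The counts were 5 lower and 3 higher with library size alone. JAZ8 (Migut.M00900), a JAZ repressor, had 26.1, 102.9 and 157.2 CPM in Inland 4leaf, 0, 1.50 and 8.82 in Coast 4leaf and 0, 0.22 and 1.78 in Coast 8leaf. The inland plants were all above all coastal plants, and the LFC was -8.16 (SE 0.48) at 8 leaves and -5.22 at 4 leaves, a coastal fall by 2.93 (SE 0.64, adjusted p = 0.00093). The coastal levels rest on 119 counts at 4 leaves and 18 at 8 leaves. JAZ6 (Migut.D00926) followed with 13.0, 24.5 and 53.8 CPM in Inland 4leaf, 0.79, 2.32 and 3.91 in Coast 4leaf and 0, 1.16 and 1.60 in Coast 8leaf, and its LFC moved from -3.75 to -4.87. JAZ3 gave an LFC of -0.06 (adjusted p = 0.714) at 4 leaves and of -0.37 (adjusted p = 0.0235) at 8 leaves, with a coastal change that did not pass and, with library size alone, an LFC of 0.02.

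Of the MYC2 genes, transcription factors of the jasmonate response, Migut.B01912 had 18.5, 31.1 and 43.97 CPM in Inland 4leaf, 0.69, 2.78 and 4.23 in Coast 4leaf and 1.02, 2.95 and 4.25 in Coast 8leaf. Its LFC was -3.45 at 4 leaves and -3.38 at 8 leaves, with a coastal change of 0.07 (SE 0.26) that did not pass. Migut.E00934 had 70.4, 132.0 and 213.8 CPM in Inland 4leaf, 28, 65.3 and 115.6 in Coast 4leaf and 36.5, 40.3 and 55.2 in Coast 8leaf. The inland plants overlapped with Coast 4leaf and not with Coast 8leaf, and the LFC grew from -1.28 to -1.82. Its coastal change of -0.55 was lost with library size alone (-0.27, adjusted p = 0.222) and with no pool term (adjusted p = 0.0518), and within pools it ran from -1.07 to 0.35. MYC6 (Migut.E01090) instead closed. It had 92.8, 112.8 and 138.1 CPM in Coast 4leaf, 54.8, 68.7 and 91.6 in Coast 8leaf and 43.9, 68.4 and 83.4 in Inland 4leaf. The coastal groups did not overlap, which held for 1.79% of genes, and the LFC fell from 0.73 to 0.05 (95% interval -0.16 to 0.26). With library size alone it was 0.43 at 8 leaves and passed the test, and it was then smaller rather than closed. NINJA, an adaptor of JAZ repression, was lower in coastal plants at both stages (LFC -1.18 and -1.14), and neither COI1 receptor gene passed in either comparison. At matched phase both were higher in coastal plants with library size alone (LFC 0.64 and 0.56), and Migut.F01428 passed in both comparisons with all 80 libraries fitted (adjusted p = 0.0302 and 0.0372).

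Of 5 synthesis genes tested, 3 were higher and 2 lower in the coastal plants in both comparisons. Of all genes 36% were higher and 35.4% lower at 8 leaves, and 31.5% and 31.3% at 4 leaves. LOX2 (Migut.D00552), a lipoxygenase of the first step, had 58.8, 132.5 and 229.7 CPM in Coast 8leaf, 108.3, 184.3 and 408.1 in Coast 4leaf and 9.17, 27.8 and 169.5 in Inland 4leaf. The groups overlapped, and the LFC was 1.38 (SE 0.39, adjusted p = 0.00226) at 8 leaves and 2.06 at 4 leaves, with a coastal change of -0.67 that did not pass (adjusted p = 0.161). Migut.J00934, named AOS here although the sources also give it as OPR3, had 17.5, 34.5 and 46.4 CPM in Coast 8leaf, 20.4, 50.5 and 150.8 in Coast 4leaf and 83.2, 184.9 and 359.8 in Inland 4leaf. At matched phase these groups did not overlap, and the LFC grew from -1.83 to -2.76. For the other AOS gene, Migut.B00287, the LFC was 1.60 at both stages. Of the OPR1 genes, reductases that lie close together, Migut.B00747 had 1.88, 6.39 and 9.40 CPM in Coast 8leaf, 6.90, 11.5 and 30.5 in Coast 4leaf and 0.78, 1.92 and 4.42 in Inland 4leaf. Its LFC shrank from 2.49 to 1.50. Migut.B00744 was lower in coastal plants (LFC -1.72), with a coastal change that did not pass.

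Of 5 genes tested that act on finished jasmonates, 3 changed between the coastal stages (31.8% of all genes did). Each of the 3 had a smaller, closed or reversed ecotype difference (6.47% of all genes). ST2A (Migut.B01186), a sulfotransferase of hydroxylated jasmonate in Arabidopsis, had 2.11, 4.28 and 9.50 CPM in Coast 4leaf, 0.58, 1.59 and 2.98 in Coast 8leaf and 1.21, 2.18 and 4.96 in Inland 4leaf. All 3 groups overlapped. The LFC against Inland 4leaf was 0.75 (SE 0.29, adjusted p = 0.0227) at 4 leaves and -0.86 (SE 0.31, adjusted p = 0.0161) at 8 leaves, and the coastal fall was 1.61 (SE 0.29, adjusted p = 0.000121). The reversal itself is less firm: with library size alone the 8leaf difference was -0.47 (adjusted p = 0.17), without inland plants 5, 7 and 10 it was -0.79 (adjusted p = 0.0542), and in 1 of the 4 pools it was positive. In Inland 2leaf plants ST2A was higher, at 8.48 to 48.9 CPM. The amidohydrolase genes, which in Arabidopsis cleave amino acids from jasmonate or auxin, were lower in coastal plants at 8 leaves, with an LFC of -3.77 for IAR3, -2.37 for ILL6 Migut.C01122 and -1.20 for ILL6 Migut.N03278. The last of these shrank from -1.76, with a coastal change (adjusted p = 0.0441) that was not called in 3 of 12 other settings and in 16 of 30 fits that each left out 1 plant. LAF3 closed, from -0.74 to -0.23. JMT (Migut.C00754), a jasmonate methyltransferase, was too low in coastal plants to be tested, with 3 counts over Coast 4leaf, 2 over Coast 8leaf and 379 over Inland 4leaf, where plants had 1.18 to 36.3 CPM.

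**Figure D5:**
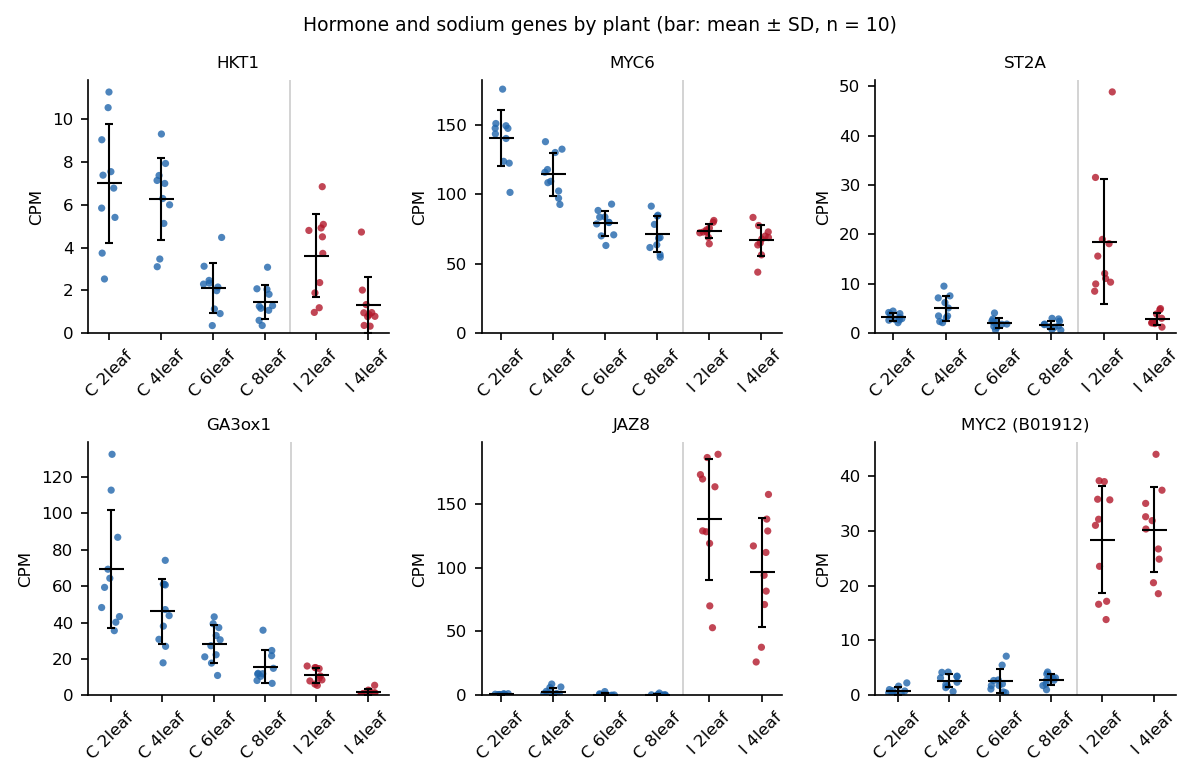
CPM per plant of 6 hormone and sodium genes by line (C, Coast in blue; I, Inland in red) and leaf stage, with mean and SD in black. HKT1 and MYC6 reach inland levels by the later coastal stages, GA3ox1 is lower at each later coastal stage but above Inland 4leaf throughout, and JAZ8 and MYC2 are low in every coastal group.

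Among 7 gibberellin genes tested the difference shrank for 3 and grew for 0, against 6.47% and 14.1% of all genes. GA3ox1 (Migut.I00834), which makes the active hormone, had 17.9, 45.5 and 74.2 CPM in Coast 4leaf, 6.57, 12.0 and 35.8 in Coast 8leaf and 0, 1.16 and 5.51 in Inland 4leaf. The phase-matched groups still did not overlap. The LFC fell from 4.98 (SE 0.29) to 3.51 (SE 0.30, adjusted p = 1.91e-11). GA20ox1 (Migut.F00399), of the step before, had 20.2, 44.9 and 139.2 CPM in Coast 8leaf, 22.1, 50.6 and 238.9 in Coast 4leaf and 8.57, 15.3 and 24.8 in Inland 4leaf. Each pair of these groups overlapped. Its LFC was 1.53 (SE 0.24) at 8 leaves and its coastal change did not pass. GA2ox8, which inactivates precursors, was lower in coastal plants (LFC -2.82), and so was the receptor gene GID1B (Migut.N02128, LFC -2.23). GID1B had 3.80, 5.76 and 8.21 CPM in Coast 8leaf and 20.5, 28.9 and 38.8 in Inland 4leaf, without overlap.

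The DELLA gene Migut.H02266 was higher in coastal plants at 4 leaves (LFC 0.88, adjusted p = 0.00113) and gave 0.40 at 8 leaves (adjusted p = 0.113), with a coastal change that did not pass (adjusted p = 0.0822), so that it is not counted as closed. The 8leaf difference passed with library size alone (LFC 0.76, adjusted p = 0.00305), with the replicate block (0.50, adjusted p = 0.0111) and without inland plants 4 and 7 (0.58, adjusted p = 0.0317). The coastal change passed with the replicate block (adjusted p = 0.0277) and without plants 5, 7 and 10 (adjusted p = 0.0491). PIF1 genes encode light-regulated factors that DELLA proteins bind. Migut.M00105 had 39.02, 57.1 and 79.1 CPM in Coast 8leaf, 59.7, 78.1 and 105.9 in Coast 4leaf and 14.7, 28.5 and 43.7 in Inland 4leaf, and its LFC shrank from 1.38 to 0.89, a coastal change that was lost with library size alone (-0.21, adjusted p = 0.109). Migut.D00504 had 10.4, 12.6 and 20.1 CPM in Coast 8leaf, 16.0, 24.4 and 32.2 in Coast 4leaf and 10.0, 16.0 and 27.9 in Inland 4leaf. Its LFC turned from 0.36 (adjusted p = 0.0494) to -0.43 (adjusted p = 0.019). The coastal fall of 0.80 (adjusted p = 0.00039) was negative in each pool, but the 4leaf difference sat at the threshold and was lost without inland plants 4 and 7 (adjusted p = 0.153) and without plants 5, 7 and 10 (adjusted p = 0.113). The 8leaf difference was -0.05 with library size alone (adjusted p = 0.792), and within pools it ran from -0.72 to 0.09.

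Sodium genes behaved differently from each other. HKT1 (Migut.L01905), a sodium transporter that draws sodium out of the xylem in Arabidopsis, had 3.11, 6.65 and 9.32 CPM in Coast 4leaf, 0.35, 1.27 and 3.08 in Coast 8leaf and 0.32, 0.90 and 4.73 in Inland 4leaf. The coastal groups did not overlap, and all Coast 8leaf plants lay within the range of Inland 4leaf. The top of that inland range was plant 2 alone, and the next inland plant, at 2.01 CPM, was below the highest Coast 8leaf plant. The LFC closed from 2.32 (SE 0.35) to 0.19 (SE 0.40, 95% interval -0.60 to 0.98), a coastal fall by 2.13 (SE 0.32, adjusted p = 1.28e-05). The 61 and 37 counts behind the last values leave that interval wide. SOS1 (Migut.E00570), a sodium exporter, had 18.7, 23.3 and 28.7 CPM in Coast 8leaf, 20.0, 25.5 and 31.7 in Coast 4leaf and 6.11, 9.59 and 13.7 in Inland 4leaf. The inland plants overlapped with neither coastal group, and the LFC was 1.26 (SE 0.13) at 8 leaves and 1.39 at 4 leaves, with a coastal change of -0.12 (SE 0.12). CIPK8, a kinase gene on this list, did not pass in either comparison (LFC -0.02, 95% interval -0.20 to 0.17 at 8 leaves).

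Of 6 auxin genes tested 5 were lower in coastal plants in both comparisons (35.4% of all genes at 8 leaves and 31.3% at 4 leaves), and 2 of these differences grew (14.1% of all genes). Migut.N01563 had 11.1, 51.2 and 125.1 CPM in Inland 4leaf, 1.98, 4.82 and 9.69 in Coast 4leaf and 0, 0.88 and 3.89 in Coast 8leaf. The inland plants overlapped with no coastal plant, and the LFC grew from -3.40 to -5.48 (SE 0.44). Migut.F01341 was the only one of the 6 tested auxin genes that was higher in coastal plants, with 5.94, 12.2 and 19.5 CPM in Coast 8leaf, 14.1, 22.3 and 40.5 in Coast 4leaf and 0, 0.42 and 1.58 in Inland 4leaf. Its LFC shrank from 5.39 to 4.40. SHY2, an Aux/IAA repressor, and AMI1, an amidase gene, were lower in coastal plants at 8 leaves (LFC -2.98 and -2.005), with coastal changes of -0.12 and -0.02 that did not pass.

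Among other regulators, APRR7 (Migut.L01650), a pseudo-response regulator of the clock, had 9.12, 11.9 and 25.97 CPM in Coast 4leaf, 4.79, 7.91 and 13.5 in Coast 8leaf and 2.35, 6.22 and 8.96 in Inland 4leaf. Its LFC closed from 1.28 to 0.48 (adjusted p = 0.0613), just short of the threshold, and it passed under 7 of 13 other settings, voom with limma among them (LFC 0.54, adjusted p = 0.0378). All plants were harvested in the same part of the day. BKI1, an inhibitor of brassinosteroid signalling, was lower in coastal plants, with an LFC of -2.80 at 8 leaves and -2.02 at 4 leaves. ARR12, a cytokinin response regulator, had an LFC of -2.44 at 8 leaves and -2.97 at 4 leaves.

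Defence and redox genes were carried by few inland plants or differed in all. MLP423 (Migut.N00310), a major latex protein gene, had 476.0 CPM in inland plant 5, 103.4 in plant 10 and 57.3 in plant 7 and a median of 2.27 CPM over Inland 4leaf, against at most 0.69 in Coast 8leaf and 0.50 in Coast 4leaf. It could not be tested after the filter on low counts. A second MLP423 gene, Migut.N00312, had 0 counts in both coastal groups and 170 in Inland 4leaf. Its inland mean of 5.89 CPM was at least 89.2-fold higher than a floor of 3 counts over the Coast 8leaf group. The sum of the 4 defence genes that includes it was 117 to 889 CPM in inland plants 5, 7 and 10. In the other inland plants that sum was at most 15.3 CPM. HS1 (Migut.N00022), a heat-stable protein gene with antimicrobial activity in Arabidopsis, had 594.0, 761.9 and 984.2 CPM in Inland 4leaf, 26.2, 71.9 and 106.6 in Coast 4leaf and 19.8, 36.9 and 57.4 in Coast 8leaf. All inland plants were far above all coastal plants, and the LFC grew from -3.69 to -4.61 (SE 0.22). MLO and CTF2A were lower in coastal plants (LFC -4.54 and -2.33), with coastal changes that did not pass.

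Of the genes that the study picked as network hubs, many belong to the lists of cell division, ribosome, chloroplast and defence genes, and a further 4 were listed as high in coastal and 3 as high in inland plants. For the 4 coast-high hubs the LFC was 5.01 in the median at 8 leaves and 5.06 at 4 leaves. None of the 4 passed between the coastal stages, but only 31.8% of all genes did. Metacaspase 9 (Migut.K00195), a cysteine protease, had 3.29, 4.57 and 7.44 CPM in Coast 8leaf, 2.42, 4.17 and 7.54 in Coast 4leaf and 1 count in 1 Inland 4leaf plant, with a coastal change of 0.00 (SE 0.22). The 3 inland-high hubs were lower in coastal plants at both stages, with a median LFC of -2.48 at 8 leaves. None of the 3 passed between the coastal stages, which with so few genes lies near the share of 31.8%.

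Some of the largest differences lay in genes whose identifier is paired with no name in the sources used here. At matched phase Migut.E00178 had 898 counts over Coast 8leaf, 1895 over Coast 4leaf and 1 over Inland 4leaf, and Migut.O00079 had 349, 255 and 0. Migut.D02509 had 10161 counts over Inland 4leaf, with a median of 333.2 CPM per plant, against 17 over Coast 8leaf, and Migut.K01124 had 924 against 0 in both coastal groups. Between the coastal stages Migut.F00397 had 0.25, 0.92 and 4.14 CPM in Coast 4leaf, 7.72, 25.6 and 50.6 in Coast 8leaf and 34.7, 46.8 and 57.9 in Inland 4leaf. Its LFC against Inland 4leaf shrank from -5.08 to -0.73, and Coast 8leaf reached into the inland range. Migut.F02093 had 1.03, 2.56 and 7.50 CPM in Coast 4leaf, 1.29, 5.11 and 11.7 in Inland 4leaf and 1 count in 1 plant of Coast 8leaf, so that its difference opened at matched phase. Among the reversed genes Migut.C00183 had 32.8, 76.4 and 138.5 CPM in Coast 4leaf, 1.04, 6.87 and 14.3 in Coast 8leaf and 3.22, 39.4 and 66.9 in Inland 4leaf, and its LFC turned from 0.98 to -2.53.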

How the data were processed

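RNA of 80 plants was measured by 3′-Tag-Seq, and 30 libraries were fitted together. The authors removed adapters (Cutadapt), used the v2.0 assembly of M. guttatus as the target of BWA-MEM, filtered for primary alignments (SAMtools) and obtained counts with HTSeq 0.6.1 in stranded union mode. The deposited values were whole-number counts of 28140 genes, 2988 with a total of 0, so that the table had not been filtered; 6 lines held labels, and 0 count columns lacked a sample. Gene sequences were not used here.

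Groups and plant numbers came from the sample labels. Tests used edgeR 4.0.16 in R 4.3.3: filterByExpr (minimum count 10, total 15), TMM scaling, the quasi-likelihood F test with group and library pool, and Benjamini-Hochberg adjustment over 14723 genes at 0.05. The study's own model used voom with limma, run here as an alternative. Standard errors were derived from each LFC together with its F value, and printed CPM used TMM factors of all 80 libraries. TMM factors ran from 1.03 to 1.29 in Coast 8leaf, 0.85 to 1.09 in Coast 4leaf and 0.74 to 1.20 in Inland 4leaf. In data simulated on these libraries for Coast 8leaf against Inland 4leaf over 14723 genes, 91% of 100 genes changed 2-fold and 100% of 100 changed 4-fold were recovered, and 4.98% of calls were unchanged genes. The changed genes had a mean of at least 10 counts, all others were equal between groups, and no pool effect was simulated. In the data 71.4% of genes passed at matched phase, so these shares give no error rate for the reported calls. Permutations used scipy.

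The groups compared, the gene lists and the named genes were chosen with earlier results of these data known. Named genes were the 89 that the paper names by identifier or an earlier account names with a symbol (CYP94B1, JAZ9 and ABA4, named without an identifier, were not analysed here), and for genes without a name at most 2 per direction with the largest LFC among those past the test whose mean count reached 10 in 1 group or more. Alternatives covered the tool (DESeq2 1.42.0, limma 3.58.1), scaling, filter, pool, replicate block, library choice and fold threshold. Some alternatives without inland plants were added after the data were seen. None of the 435 library pairs were identical.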

Additional observations from a re-analysis of the deposited data

Results flagged for a closer look

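Of 102 sets of 10 plants examined, 17 held a plant far from the others by Dixon's ratio (critical value 0.466). Chance gives about 1 in 20 where values are normally distributed and sets independent. Here some levels rest on few counts and the sets share plants and genes, so the 17 cannot be read as an excess. In Inland 4leaf, plant 4 stood apart in the summed bud-restricted genes (67.5 CPM, next 35.3 in plant 7), H2A6 (310.5, next 155.0), TPX2 (28.2, next 12.1) and the distance to the other Inland 4leaf libraries (111.2, next 91.2). Plant 5 stood apart in MLP423 (476.0 CPM, next 103.4), in the sum of the 4 defence genes (889.1, next 216.4) and in metacaspase 9 (0.26 CPM, a single count, the others at 0). Plant 2 was high in GA3ox1 (5.51, next 2.86) and HKT1 (4.73, next 2.01) and low in ribosomal S19 (228.9, next 282.3).

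In Coast 4leaf single plants were high in OPR1 Migut.B00747 (30.5 CPM), GA20ox1 (238.9), PIF1 Migut.M00105 (105.9) and MLP423 (0.50), and plant 10 had the largest distance to the inland libraries (169.0, next 158.6). In Coast 8leaf plant 5 was high in JAZ8 (1.78 CPM, next 0.43) and plant 1 in metacaspase 9 (7.44, next 5.21).

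The ecotype difference had opposite signs at Coast 4leaf and Coast 8leaf for ST2A (coastal change -1.61, LFC 0.75 to -0.86) and for PIF1 Migut.D00504 (coastal change -0.80, LFC 0.36 to -0.43). The contrast tested the coastal change and not the turn in sign. The 8leaf difference of ST2A was not called in 2 of 12 other settings. For Migut.D00504 the 4leaf difference was not called in 18 of 30 fits that each left out 1 plant.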

How the results depend on the processing

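The counts of genes differing between Coast 8leaf and Inland 4leaf, and between Coast 4leaf and Inland 4leaf, remained within 1.5 times of those reported under other tools, scalings and filters, and without inland plants 4 and 7 or 5, 7 and 10. Leaving out 1 plant at a time gave 10361 to 10763 and 8980 to 9564 genes, 3886 to 4914 for the coastal change, 754 to 1016 that shrank, 1739 to 2327 that grew, 434 to 579 that closed and 1145 to 1580 that opened. Library size alone gave 7233 genes for the coastal change, 838 closed and 2361 opened, and 2548 moving away and 1124 toward by the 2leaf direction. An absolute LFC over 1 left 4927 genes at matched phase, 3619 at 4 leaves, 934 for the coastal change, and 437 moving away and 304 toward. Chosen by the 8leaf difference, 352 differences shrank and 3544 grew, with opened and reversed differences counted as grown and closed ones left out. Within pools, of 2 to 3 plants a group, the phase-matched counts were 7214, 6807, 4182 and 6300, the 4leaf counts 5230, 3624, 4716 and 3873, and the coastal changes 887, 1620, 9 and 48. Without inland plants 5, 7 and 10, 33 rather than 64 differences reversed.

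With the replicate block (plant number beside pool) 10494, 9292 and 4722 genes passed. Plants of the same number did not deviate together: correlations between Coast 8leaf and Inland 4leaf were -0.17 to 0.23, over 0.1 for 3 of 10, and 2 of 10 plants correlated best with their own number, so that the numbers do not pair the plants.

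With library size alone, 4 listed genes that passed under the reported scaling or under this one turned sign at matched phase. Their LFC became 0.0201 for JAZ3, 0.365 for CIPK8, 0.133 for the DnaJ/Hsp40 gene and 0.295 for RPL4. Genes that passed under neither scaling were not counted here, whatever their sign. Over the listed genes, 2627 of 2699 values under other settings kept their side of the threshold, with 27 weaker, 41 stronger and 4 reversed. Direction was compared only for values that passed in the reported fit or in the other setting. The distance of the coastal plants rose by 20.6 with library size alone, 16.8 without inland plant 4 and 17.8 without plants 4 and 7, and by 0.044 as 1 minus Spearman's correlation (p = 0.00012 to 0.00014 by permutation).

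Each ecotype is 1 line, the leaves compared came from different nodes, and phase and node cannot be told apart. Depth limits genes with few reads: over all 10 Coast 8leaf plants HKT1 had 61 counts, ST2A 74 and JAZ8 18.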
